A study of Mus musculus with 110 samples.

Results

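Abhd11os is a long noncoding RNA gene of the mouse, and Abhd11 is the protein-coding gene that runs towards it from the other strand. The 2 genes were taken by name from a count table of 24056 genes in 110 libraries. Abhd11os had been picked because its counts were far lower in R6/2 mice given the control virus and higher again with the ZFP virus, so its own values in those comparisons are described here without a test. The comparisons of Abhd11 were not used in that choice and were tested, to ask whether the coding neighbour moves with the noncoding gene.

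The libraries came from RiboTag experiments, in which a tagged ribosomal protein (HA) in 1 cell type is pulled down so that the RNA on the ribosomes of those cells (IP) can be set against the RNA of the whole lysate (Input). Each library came from a mouse labelled R6/2 or NCAR, with an adeno-associated virus described as cell-type specific that carried either ZFP or Delta, the latter given as the control. The 4 conditions are called ND (NCAR + Delta), NZ (NCAR + ZFP), RD (R6/2 + Delta) and RZ (R6/2 + ZFP). They were repeated in 4 sets. The MG set is labelled astrocytes and has IP only, the hSyn set is labelled neurons, the n_ZFP_a_Rpl set astrocytes and the n_ZFP_n_Rpl set neurons, and the last 3 have IP and Input. That gives 7 combinations of set and fraction and 28 groups of 3 to 5 libraries. The strain of every library is given as R6/2, a line that carries a fragment of the human huntingtin gene with an expanded repeat. The labels used here give no tissue, age, or number of animals per library, and they do not say which cells made the ZFP in the MG and hSyn sets. Since nothing states that replicates were separate animals, the p-values measure the spread between these libraries only.

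Each library held 26.4 M to 72.6 M counts, of which Abhd11os had 2 to 1241 and Abhd11 412 to 1549. All 12 astrocyte markers were higher in IP than in Input in ND of the n_ZFP_a_Rpl set, where 35.5% of all genes were higher. All 10 pan-neuronal markers were higher in both neuron sets, where 31.6% (hSyn) and 38.1% (n_ZFP_n_Rpl) of genes were. In the astrocyte-labelled n_ZFP_a_Rpl IP, 8 of the 10 pan-neuronal markers were also higher than in Input, so neuronal RNA was present in that pull-down. The MG set has no Input to compare with. The summed level of these markers in ND was 7368 to 8152 CPM in its IP and 6677 to 6978 CPM in the n_ZFP_a_Rpl IP, so the MG IP held neuronal RNA too. None of the markers was at 0 in any library.

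Abhd11 is a mitochondrial serine hydrolase of the alpha/beta-hydrolase fold. It is known to keep the lipoyl groups of the 2-oxoglutarate dehydrogenase complex intact, a step of the citric acid cycle. Abhd11os has no known protein and is known as an RNA of the striatum, enriched there over other brain regions and lowered in mouse models of Huntington's disease. An antisense RNA can in principle share a promoter, a chromatin domain or overlapping ends with its neighbour, so the arrangement of the pair bears on how their counts can be read.

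On chromosome 5 of GRCm38.p6 (RefSeq), Abhd11 (gene 68758, 5 transcripts) lies on the plus strand at chr5:135009152-135012175, a span of 3024 bases. Abhd11os (gene 69812, 1 transcript, annotated as a long noncoding RNA) lies on the minus strand at chr5:135012122-135013157, a span of 1036 bases. The pair converge: their 3′ ends overlap in chr5:135012122-135012175, 54 bases, which is 1.79% of the span of Abhd11 and 5.21% of that of Abhd11os. Their starts lie at the far ends, so they share no promoter window. The strand setting used for counting is not given in the sources used here. Reads in the overlap may therefore have been left out or credited to the other gene, and values of the 2 genes cannot be separated there.

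**Figure D1:**
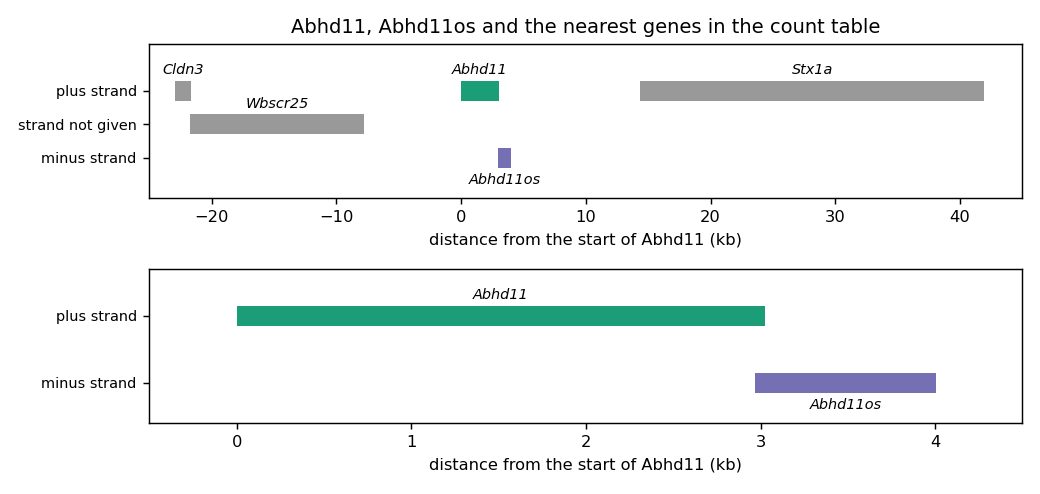
Map of the genes around Abhd11 by distance in kb from its start, with the plus strand above and the minus strand below the line; the lower panel widens the 2 genes. Abhd11 and Abhd11os point at each other and overlap by 54 bases, while the nearest tested gene, Stx1a, begins 10325 bases beyond Abhd11os.

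The windows around the starts are shown because each gene has its own, 1 at either end of the locus. Both are printed 5′ to 3′ on the strand of the gene, from 250 bases before to 50 bases after the start (RefSeq, GRCm38.p6), with capitals marking matches to CCAAT or to the GC box GGGCGG on either strand.

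Abhd11, chr5:135008902-135009201, plus strand: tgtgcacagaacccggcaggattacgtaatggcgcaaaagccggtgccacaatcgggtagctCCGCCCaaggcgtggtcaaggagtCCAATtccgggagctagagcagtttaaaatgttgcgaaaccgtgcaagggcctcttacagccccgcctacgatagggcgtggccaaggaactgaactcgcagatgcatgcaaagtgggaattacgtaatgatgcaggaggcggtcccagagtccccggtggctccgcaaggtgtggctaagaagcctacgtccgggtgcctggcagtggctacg

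Abhd11os, chr5:135013108-135013407, minus strand: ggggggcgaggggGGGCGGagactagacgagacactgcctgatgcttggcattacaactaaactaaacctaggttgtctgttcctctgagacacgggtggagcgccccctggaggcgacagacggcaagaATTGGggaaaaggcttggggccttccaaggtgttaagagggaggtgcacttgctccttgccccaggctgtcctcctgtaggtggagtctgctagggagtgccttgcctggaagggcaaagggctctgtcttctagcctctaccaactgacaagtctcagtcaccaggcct

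Each window held 1 CCAAT and 1 GGGCGG match and no TATAAA and no TGACGTCA, the full cyclic AMP response element. Both strands were searched, and the matches do not overlap each other. Of 32851 such windows of 27025 genes, 37.4% held CCAAT, 35.7% GGGCGG, 13.6% TATAAA and 1.79% TGACGTCA. Both windows were 58.3% G or C, above the median of 52.7%. The Abhd11 window held 21 CpG dinucleotides and that of Abhd11os 7, which is the median of all windows. The other 2 Abhd11 windows in the table held none of the 4 motifs. A match describes the letters only.

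In ND the level of Abhd11os depended on the set. Levels are CPM, counts scaled by library total and TMM factors over all 110 libraries. They are compared between libraries for the same gene, never between the genes, because they are not per length. Abhd11os stood at 22.5 ± 0.973 CPM (SD, n = 5) in the hSyn IP and 16.9 ± 1.02 CPM (SD, n = 5) in the hSyn Input, and these 2 groups did not overlap each other or any lower group. The next was the MG IP at 11.7 ± 1.32 CPM (SD, n = 4), then the n_ZFP_n_Rpl IP at 9.97 ± 2.29 CPM (SD, n = 4) and the n_ZFP_a_Rpl Input at 8.17 ± 0.424 CPM (SD, n = 4). The lowest were the n_ZFP_n_Rpl Input at 6.98 ± 2.55 CPM (SD, n = 4) and the n_ZFP_a_Rpl IP at 6.10 ± 0.819 CPM (SD, n = 4). From the MG IP downwards each group overlapped the next. Abhd11 was far more even: its ND means ran from 15.1 ± 0.519 CPM (SD, n = 4) in the n_ZFP_n_Rpl Input to 23.9 ± 1.44 CPM (SD, n = 4) in the n_ZFP_a_Rpl IP, and each group in that order overlapped its neighbour.

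Relative to ND, Abhd11os was lowest in RD of the n_ZFP_n_Rpl set, and there RZ was the largest multiple of RD. In its IP, Abhd11os was at 6.84, 9.92, 10.9 and 12.2 CPM in the ND libraries and at 0.229, 0.180, 0.334 and 0.205 CPM in the RD libraries. The RZ libraries were at 6.79, 4.68, 3.31 and 2.36 CPM and the NZ libraries at 11.9, 7.74, 8.64 and 8.74 CPM. RD was apart from every other condition, at 2.37% of ND, and RZ lay between at 43.0% without reaching the lowest ND library. In the Input of the same set the ND libraries were at 4.00, 6.22, 10.1 and 7.62 CPM and the RD libraries at 0.240, 0.175, 0.0628 and 0.182 CPM, which is 2.36% of ND. The RZ libraries were at 2.33, 2.48, 1.65 and 1.42 CPM, or 28.2% of ND, and the NZ libraries at 7.48, 5.07, 6.71 and 5.85 CPM. The order of the 4 conditions was that of the IP, with RZ above RD and below ND in every library. The difference between RD and ND was -5.45 on the log2 scale in the IP and -5.32 in the Input, the 11th lowest of 15126 genes and the 7th lowest of 15821. Between RZ and RD it was 4.19 in the IP, the 3rd highest, and 3.5 in the Input, the highest of all. These ranks describe the choice of the gene. For scale, 51.4% of all genes in the IP and 49.8% in the Input passed the test between RD and ND, and 17.4% and 3.32% between RZ and RD.

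In the n_ZFP_a_Rpl set more of Abhd11os was left in RD in the pull-down than in the lysate. In the IP from cells labelled astrocytes, Abhd11os was at 6.57, 6.72, 4.92 and 6.20 CPM in ND and 1.33, 1.09 and 1.33 CPM in RD, so that RD kept 20.5% of ND. The Input of the set was at 8.64, 8.34, 8.05 and 7.64 CPM in ND and 0.262, 0.253 and 0.159 CPM in RD, which is 2.75%. All RD libraries of the IP lay above all RD libraries of the Input, although in ND the IP was the lower fraction. With ZFP, the RZ libraries were at 3.10, 3.41, 3.25 and 1.94 CPM in the IP and 2.00, 1.71, 1.83 and 1.79 CPM in the Input. The IP was then at 48.0% and the Input at 22.4% of ND. In the IP the RZ mean was 2.34 times the RD mean, and in the Input 8.15 times, from a lower start. The NZ libraries were at 6.61, 7.73, 6.003 and 6.33 CPM in the IP and 11.7, 8.76, 9.66 and 10.01 CPM in the Input. On the log2 scale RD differed from ND by -2.34 in the IP and -5.19 in the Input, where 45.3% and 49.1% of all genes passed the test. RZ differed from RD by 1.26 and 3.02, where 33.8% and 16.1% of genes did.

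The hSyn set had the highest ND level, RD levels of a few percent of it, and RZ levels of under 10% of it. Abhd11os in its IP was at 23.1, 23.5, 22.0, 21.1 and 22.9 CPM in ND and 0.909, 1.02 and 0.770 CPM in RD, or 4.00% of ND. The RZ libraries were at 1.66, 2.45, 1.80 and 2.81 CPM, above all RD libraries, with a mean 2.42 times that of RD and 9.68% of that of ND. The NZ libraries were at 22.3, 26.2, 27.4 and 22.2 CPM and overlapped ND. In the Input the ND libraries were at 15.3, 17.6, 17.02, 16.5 and 17.9 CPM, the RD libraries at 1.21, 0.751 and 0.697 CPM and the RZ libraries at 1.41, 1.52, 1.77 and 1.74 CPM. RD thus kept 5.26% and RZ 9.55% of ND, the RZ mean was 1.82 times that of RD, and again no RZ library overlapped RD. The NZ libraries of the Input were at 17.1, 17.2, 20.2 and 16.99 CPM. RD differed from ND by -4.69 on the log2 scale in the IP and -4.28 in the Input, where 51% and 44.1% of all genes passed the test. RZ differed from RD by 1.26 and 0.87. In these 2 fits 0.0391% and 0% of all genes passed between RZ and RD with edgeR, and 22 and 5 genes with DESeq2.

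In the MG set, whose IP is labelled astrocytes, Abhd11os was lower in RD but nearer to ND than elsewhere, and RZ lay within the range of RD or below it. The ND libraries were at 9.82, 12.9, 11.7 and 12.2 CPM and the RD libraries at 4.29, 3.29, 2.91 and 2.69 CPM, so that RD kept 28.3% of ND. The RZ libraries were at 3.43, 2.92, 2.33 and 3.15 CPM and overlapped RD. The NZ libraries were at 18.1, 8.83, 9.93 and 10.7 CPM. On the log2 scale RD less ND was -1.81, where 33.5% of all genes passed the test, and RZ less RD was -0.18, where 0.0782% did. Across the 7 combinations RD and ND never overlapped, and RZ and RD overlapped in the MG IP alone. No RZ group reached its ND group.

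**Figure D2:**
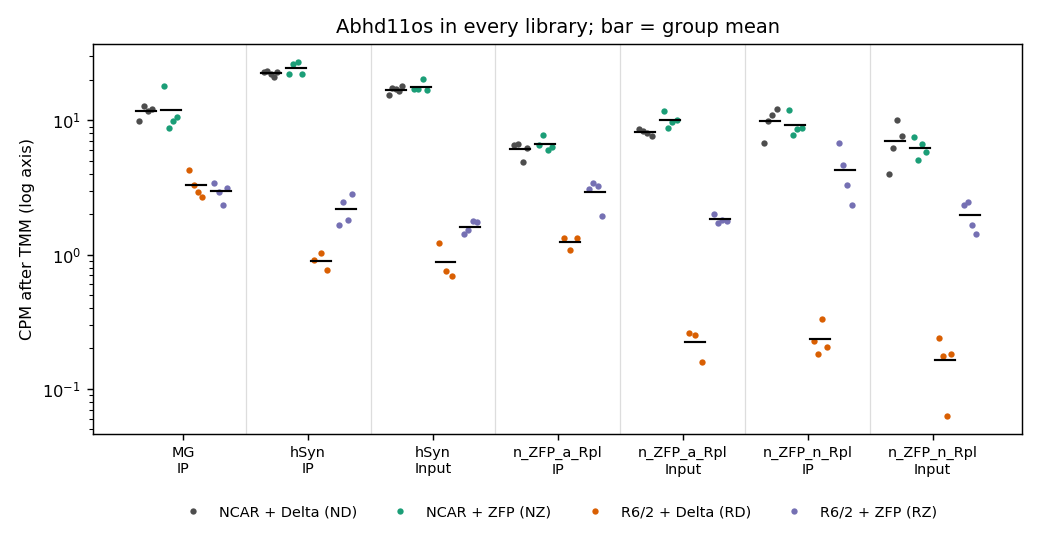
Abhd11os in each library (points, CPM on a log axis) by set, fraction and condition, with a bar at each group mean. RD lies lowest in 6 of the 7 panels and RZ lies between RD and ND, while in the MG IP the RD and RZ libraries overlap.

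In bulk pull-downs and lysates, fewer cells that make Abhd11os and less Abhd11os per cell cannot be told apart. Markers of several cell types moved with it, those of striatal projection neurons among them, and others did not. Between RD and ND, 18 or 19 of 19 such markers fell in each of the 7 combinations, where 16.2% to 26.2% of all genes fell, with list medians of -1.29 to -1.75 beside medians near 0 over all genes. Between RZ and RD, 18 rose and 1 fell in the n_ZFP_a_Rpl IP (19.1% and 14.7% of all genes) and 17 and 1 in its Input (11.1% and 5.03%). In the n_ZFP_n_Rpl IP 11 rose and 1 fell (9.47% and 7.95% of all genes) and in its Input 9 and 0 (2.49% and 0.828%). None passed in the MG IP or in either hSyn fraction. In the n_ZFP_n_Rpl IP their summed level was 14040 to 21628 CPM in ND, 5863 to 7612 CPM in RD and 7925 to 12394 CPM in RZ. In the MG IP the sum was 13244 to 14071, 3802 to 5254 and 3977 to 4749 CPM in the same order. Among them, the sodium channel subunit gene Scn4b fell by 3.13 in the n_ZFP_n_Rpl IP, the enkephalin precursor gene Penk fell by 2.36 and the phosphodiesterase gene Pde10a fell by 2.07, against -5.45 for Abhd11os. Interneuron markers fell too, 6 of 6 between RD and ND in each combination but the MG IP, where 3 did. Of all genes 16.2% fell in the MG IP and 21.6% to 26.2% in the others. Between RZ and RD 5 of the 6 rose in the n_ZFP_n_Rpl IP (9.47% of all genes) and 4 in its Input (2.49%). In the n_ZFP_a_Rpl set 3 of these markers rose in the IP (19.1% of all genes) and 3 in the Input (11.1%). Their summed level in the n_ZFP_n_Rpl IP was 345 to 406 CPM in ND, 177 to 189 CPM in RD and 266 to 299 CPM in RZ. Of 12 astrocyte markers 9 fell between RD and ND in that IP, beside 26.2% of all genes. Their sum was 3732 to 4706 CPM in ND, 1951 to 2614 CPM in RD and 2395 to 3595 CPM in RZ. In the n_ZFP_a_Rpl IP the sum was 21291 to 25994 CPM in ND, 17081 to 18418 CPM in RD and 13500 to 14683 CPM in RZ. There RZ was below RD, unlike for Abhd11os. The oligodendrocyte genes Mog, Mag and Cnp rose between RD and ND in the n_ZFP_n_Rpl IP, by 1.08, 0.97 and 0.80. The sum of 6 such markers was 1207 to 1727 CPM in ND and 1486 to 2613 CPM in RD there. In the Input of that set it was lower in RD, at 3564 to 4733 CPM against 5496 to 6548.5 CPM in ND. The part of any of these cell types in the values of Abhd11os was not tested.

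In NCAR mice ZFP gave no call of Abhd11os. Between NZ and ND, which were not used to choose the gene, it passed the test in 0 of 7 combinations with edgeR's quasi-likelihood test, with 1 at an unadjusted p under 0.05, and in 0 with DESeq2. The differences ran from -0.16 ± 0.24 (SE) in the n_ZFP_n_Rpl Input to 0.30 ± 0.10 in the n_ZFP_a_Rpl Input (adjusted p = 0.178). The n_ZFP_a_Rpl Input was the only combination in which the NZ and ND libraries did not overlap. The share of all genes called between NZ and ND was 7.05% in the MG IP, 0.0261% and 0.00622% in the hSyn IP and Input, 2.07% and 0.957% in the n_ZFP_a_Rpl IP and Input, and 7.36% and 3.03% in the n_ZFP_n_Rpl IP and Input.

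Abhd11 was lower in R6/2 in most combinations, by much less than Abhd11os. Between RD and ND it fell in 5 of 7 combinations (5 with DESeq2), where 21.6% to 26.2% of all genes fell, and did not pass in the MG IP and the n_ZFP_n_Rpl Input. Its RD means were 80.6% to 89.2% of ND in 6 combinations and 102% in the n_ZFP_n_Rpl Input. Abhd11os in the same libraries kept 2.36% to 28.3%.

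Abhd11 had its smallest adjusted p in the n_ZFP_a_Rpl IP. Its levels were 22.2, 24.2, 25.7 and 23.7 CPM in ND, 19.7, 19.2 and 19.1 CPM in RD and 23.1, 22.2, 22.9 and 21.5 CPM in RZ. The RD libraries lay below all others. Abhd11 fell by 0.36 ± 0.05 (SE) on the log2 scale between RD and ND (adjusted p = 6.11e-05), where 24.7% of all genes fell. It rose by 0.25 ± 0.05 between RZ and RD (adjusted p = 0.00199), where 19.1% of all genes rose. Neither call was lost when any 1 library was left out. In the Input the ND libraries were at 18.8, 16.9, 16.2 and 19.0 CPM, the RD libraries at 15.2, 15.3 and 14.4 CPM and the RZ libraries at 17.1, 17.2, 16.7 and 16.5 CPM. Abhd11 fell by 0.26 ± 0.08 in RD (adjusted p = 0.0134), also beside 24.7% of genes, a call lost without RD replicate 3 (-0.24, adjusted p = 0.0579). RZ less RD was 0.18 ± 0.08 (adjusted p = 0.154), where 11.1% of genes rose, although the RZ libraries did not overlap RD.

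In the neuron-labelled pull-downs the drop in RD was of the same order. In the hSyn IP Abhd11 was at 24.2, 20.1, 19.0, 18.9 and 21.0 CPM in ND, 15.3, 17.3 and 17.2 CPM in RD and 16.1, 18.1, 16.3 and 21.1 CPM in RZ. It fell by 0.37 ± 0.10 between RD and ND (adjusted p = 0.00575), where 25.5% of all genes fell, and no left-out library ended the call. RZ less RD was 0.11 ± 0.10 (adjusted p = 0.877), where 0.00652% of genes rose and 0.0326% fell. In the n_ZFP_n_Rpl IP the ND libraries were at 18.4, 21.0, 23.2 and 22.8 CPM, the RD libraries at 18.9, 18.3, 18.8 and 19.5 CPM and the RZ libraries at 22.5, 22.9, 21.3 and 21.5 CPM. The groups overlapped between RD and ND through 1 low ND library, but not between RZ and RD. Abhd11 fell by 0.26 ± 0.08 in RD (adjusted p = 0.0188), beside 26.2% of genes. That call was lost without ND replicate 3 (-0.22, adjusted p = 0.0560) or ND replicate 4 (-0.23, adjusted p = 0.0545). It rose by 0.26 ± 0.08 in RZ (adjusted p = 0.0429), beside 9.47% of genes, and this call was lost whichever 1 of the 8 RZ and RD libraries was left out, with adjusted p from 0.0593 to 0.117.

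Abhd11 was called between RD and ND in the Input of the hSyn set and not in that of the n_ZFP_n_Rpl set, a difference that was not tested. In the hSyn Input Abhd11 was at 18.8, 14.9, 15.9, 14.8 and 17.3 CPM in ND, 12.4, 14.96 and 14.3 CPM in RD and 13.6, 16.2, 13.9 and 16.1 CPM in RZ. It fell by 0.26 ± 0.09 in RD (adjusted p = 0.0311), where 21.6% of genes fell. The call was lost without ND replicate 0 or 5 or RD replicate 1 or 3, over adjusted p from 0.0201 to 0.170, and the groups overlapped. In the n_ZFP_n_Rpl Input the levels were 14.5, 14.97, 15.3 and 15.7 CPM in ND, 16.5, 15.5, 15.5 and 13.9 CPM in RD and 17.3, 17.4, 15.6 and 17.3 CPM in RZ. RD less ND was 0.0346 ± 0.0601 (adjusted p = 0.654), where 49.8% of genes were called, in libraries whose Abhd11os was at 2.36% of ND. This is the combination in which the pair differed most. RZ less RD was 0.13 ± 0.06 (adjusted p = 0.259), beside 2.49% of genes that rose.

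In the MG IP Abhd11 was at 18.8, 19.9, 20.1 and 19.5 CPM in ND, 16.96, 18.3, 16.9 and 17.6 CPM in RD and 20.1, 21.8, 21.2 and 24.0 CPM in RZ, and the RD libraries lay below all of ND and RZ. RD less ND was -0.15 ± 0.07 (adjusted p = 0.103), where 16.2% of genes fell. RZ less RD was 0.30 ± 0.07, with an unadjusted p of 0.000515 and an adjusted p of 0.131, beside 0.013% of genes that rose and 0.0652% that fell. The difference passed without RZ replicate 1 (0.34, adjusted p = 0.00876). It also passed with DESeq2 (0.32, adjusted p = 0.00531), which called 391 of all genes between RZ and RD there where edgeR called 12. The NZ libraries were at 27.8, 23.1, 22.1 and 25.4 CPM, all above ND, and Abhd11 rose by 0.32 ± 0.07 between NZ and ND (adjusted p = 0.0260), where 3.68% of genes rose and 3.36% fell. Leaving out ND replicate 1, 2 or 3 or NZ replicate 3 or 5 ended that call, over adjusted p from 0.0177 to 0.0813. In the same libraries Abhd11os was at 0.00842 ± 0.195 (adjusted p = 0.983). The MG IP was the only one of 7 combinations in which Abhd11 was called between NZ and ND.

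Elsewhere NZ and ND of Abhd11 lay close together. The NZ libraries were at 21.2, 24.6, 22.1 and 20.2 CPM in the hSyn IP and 14.9, 15.8, 16.2 and 16.2 CPM in its Input. They were at 25.7, 25.8, 25.3 and 23.2 CPM in the n_ZFP_a_Rpl IP and 21.3, 21.2, 19.6 and 16.3 CPM in its Input. In the n_ZFP_n_Rpl set they were at 26.7, 21.1, 19.8 and 22.7 CPM in the IP and 16.4, 16.6, 15.7 and 15.3 CPM in the Input. The differences from ND ran from -0.0625 ± 0.0862 in the hSyn Input to 0.14 ± 0.08 in the n_ZFP_a_Rpl Input (adjusted p = 0.485), and all 6 missed the threshold.

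**Figure D3:**
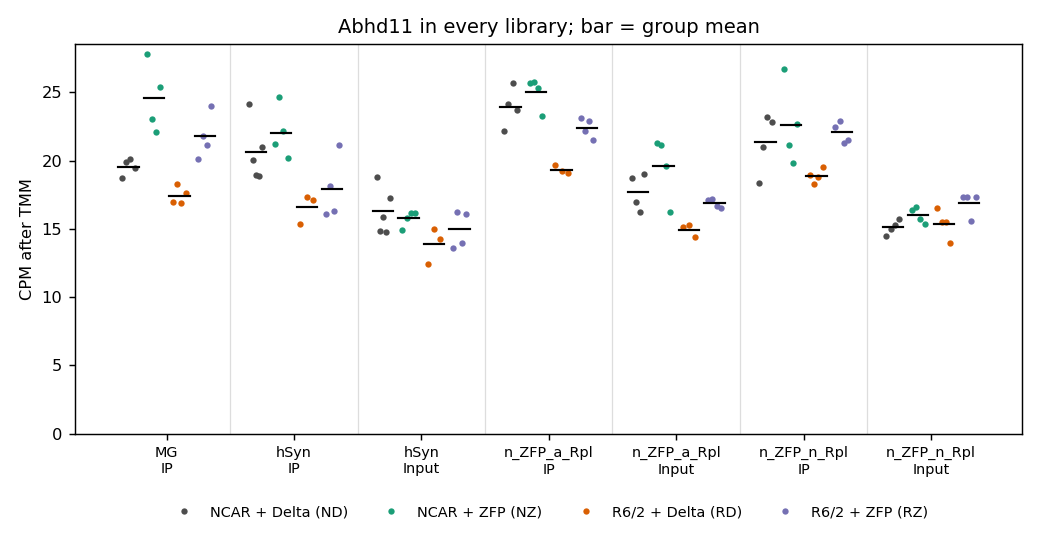
Abhd11 in each library (points, CPM on a linear axis from 0) by set, fraction and condition, with a bar at each group mean. The 4 conditions lie closer together than those of Abhd11os, with RD lowest by mean in 6 of 7 panels and all 110 libraries between 12.4 and 27.8 CPM. In the MG IP the means run from 17.4 CPM (RD) to 24.6 CPM (NZ), and ND overlaps neither.

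Between RZ and ND Abhd11 was called lower in the hSyn IP (-0.26 ± 0.09, adjusted p = 0.0248), where 25.4% of genes fell, and higher in the n_ZFP_n_Rpl Input (0.17 ± 0.06, adjusted p = 0.0349), where 20.1% rose. The first call was lost without ND replicate 0 or RZ replicate 1 or 3, up to an adjusted p of 0.0868. Leaving out any of the 8 libraries but RZ replicate 3 ended the second call, up to an adjusted p of 0.121, and so did DESeq2 (adjusted p = 0.0743). Abhd11 passed in none of the other 5 combinations, where 37% (MG IP), 45.8% (hSyn Input), 24.4% and 35.8% (n_ZFP_a_Rpl IP and Input) and 31.3% (n_ZFP_n_Rpl IP) of all genes did. The interaction, RZ less RD minus NZ less ND, gave 0 calls of Abhd11 in 7 combinations with edgeR's test, with 1 at an unadjusted p under 0.05 and 0 with DESeq2. The largest was 0.20 ± 0.07 in the n_ZFP_a_Rpl IP (adjusted p = 0.0779), where 16.5% of all genes were called. It passed without ND replicate 1 (0.23, adjusted p = 0.0417).

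**Figure D4:**
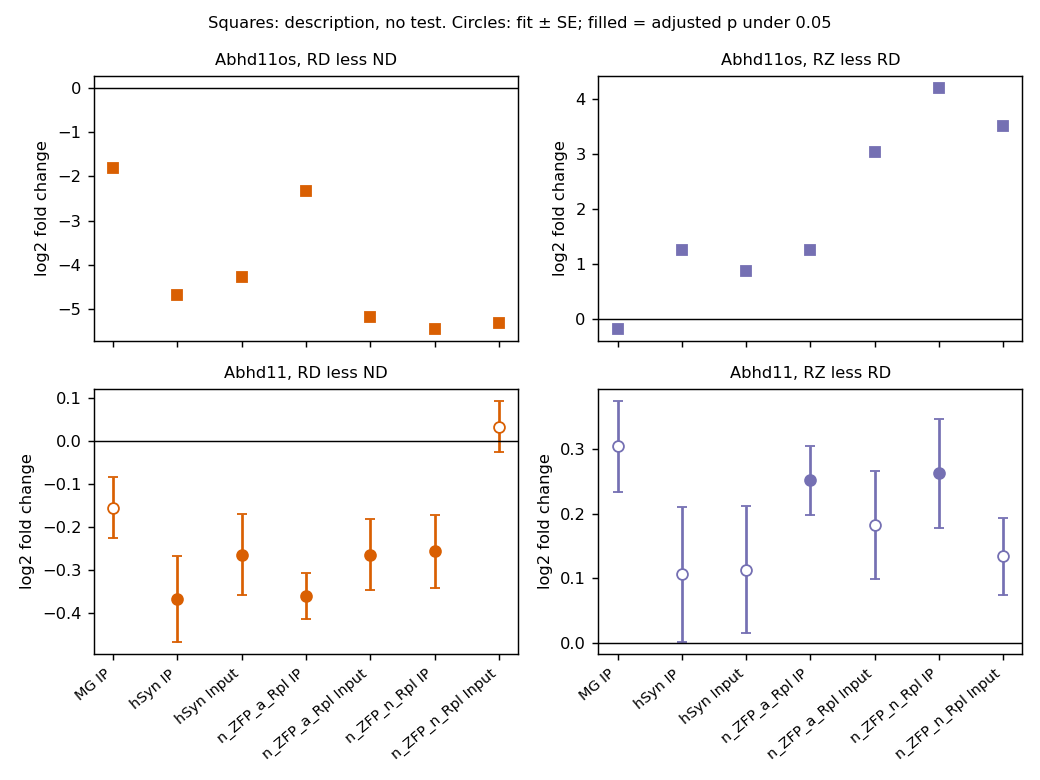
Differences on the log2 scale of Abhd11os (squares, no test) and Abhd11 (circles with SE, filled where the adjusted p was under 0.05) between RD and ND and between RZ and RD in the 7 combinations. Abhd11os spans -5.45 to -1.81 between RD and ND, whereas Abhd11 lies between -0.37 and 0.0346.

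The share of the pair's counts that came from Abhd11os can be followed from library to library. It is not per length, so it does not show which gene was the more abundant. In ND it was 52.3% in the hSyn IP, 50.9% in its Input and 37.3% in the MG IP. In the n_ZFP_a_Rpl IP and Input it was 20.3% and 31.6%, and in those of the n_ZFP_n_Rpl set 31.5% and 30.9%. In RD the share was 1.06% to 6.11% in all but the MG IP, where it was 15.8%. With ZFP in R6/2 it was 9.75% to 15.9%, the MG IP included at 11.97%. The MG IP was the only combination in which the share was lower in RZ than in RD. The share uses the contrast behind the choice of Abhd11os and is a description.

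**Figure D5:**
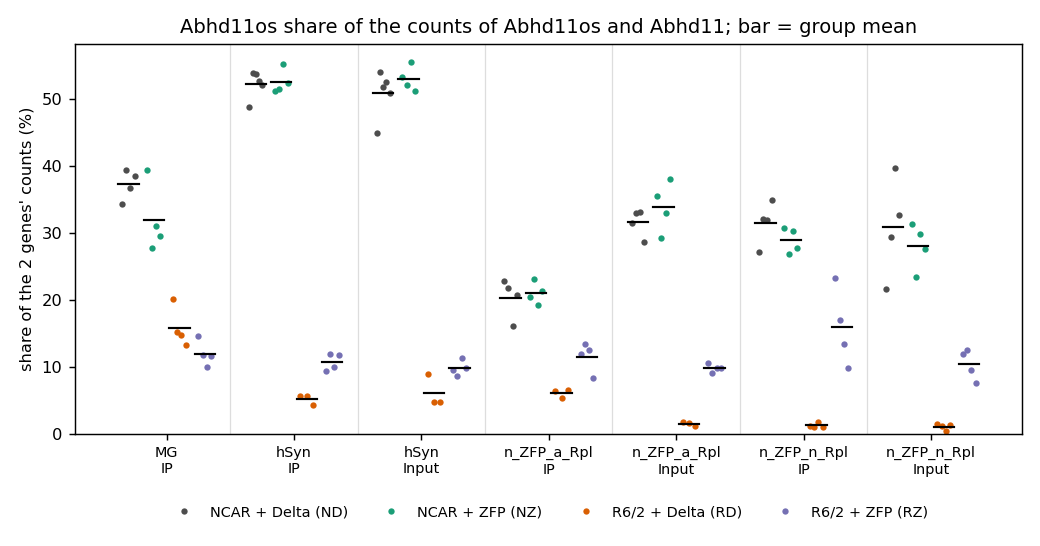
Share of the summed counts of Abhd11os and Abhd11 that came from Abhd11os (percent) in each library by set, fraction and condition. ND group means run from 20.3% to 52.3%, and RD group means from 1.06% to 15.8%.

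Between pull-down and lysate in ND, Abhd11os had opposite signs in the neuron-labelled and astrocyte-labelled sets. Abhd11os was higher in IP than in Input in the hSyn set, by 0.35 ± 0.11 (SE) on the log2 scale (adjusted p = 0.00522), where 31.6% of genes were higher. In the n_ZFP_n_Rpl set it was 0.56 ± 0.26 (adjusted p = 0.0555), where 38.1% were higher. The IP and Input libraries of that set pair by number, and with the pairs as a block the difference was 0.58 ± 0.12 (adjusted p = 6.69e-05). In the astrocyte-labelled n_ZFP_a_Rpl set Abhd11os was lower in IP, by -0.45 ± 0.13 (adjusted p = 0.00292), where 36.7% of genes were lower. Projection neuron markers went with it, with 17 and 16 of 19 higher in the neuron sets and 11 lower and 2 higher in the n_ZFP_a_Rpl set. Abhd11 instead was higher in IP in all 3 sets, by 0.27 ± 0.08 in hSyn, 0.41 ± 0.07 in n_ZFP_a_Rpl and 0.55 ± 0.07 in n_ZFP_n_Rpl (adjusted p = 0.00618, 2.72e-06 and 2.12e-07). In the same order, 31.6%, 35.5% and 38.1% of all genes were higher.

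Most listed noncoding RNAs of the brain were lower in the pull-downs than in lysate. Of 23 or 24 tested, 20, 20 and 21 were lower in IP than in Input in the hSyn, n_ZFP_a_Rpl and n_ZFP_n_Rpl sets, where 33.3%, 36.7% and 32.6% of all genes were. The list had medians of -1.71, -1.44 and -1.37, and 1 was higher in each. That 1 was Peg13 in the neuron sets and Pantr1 in the n_ZFP_a_Rpl set, named after their values were seen. The nuclear RNA Malat1 was at -3.01, -3.17 and -2.85. Abhd11os, which is not on that list, was on the higher side in both neuron sets. Between RD and ND in the n_ZFP_n_Rpl IP, 8 of 23 listed RNAs fell and 3 rose, beside 26.2% and 25.2% of all genes. Malat1 fell by 0.84 ± 0.11, Dlx6os1, which lies opposite a homeobox gene, fell by 0.80 ± 0.09, and the snoRNA host Snhg1 rose by 0.69 ± 0.17. In the MG IP 12 fell and 0 rose, beside 16.2% and 17.4% of all genes.

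The same 3 sets were asked whether the difference between RD and ND was itself unlike in IP and Input. For Abhd11 it was -0.0472 ± 0.137 in hSyn, -0.0591 ± 0.0998 in n_ZFP_a_Rpl and -0.34 ± 0.11 in n_ZFP_n_Rpl (adjusted p = 0.975, 0.892 and 0.0650), where 1.01%, 1.86% and 3.68% of all genes were called. The median of the same difference over all genes was 0.0308, 0.0180 and -0.0835 in these sets. The value of Abhd11 in n_ZFP_n_Rpl thus includes a shift in the direction of the median gene. With IP and Input of that set paired, Abhd11 was at -0.34 ± 0.09 (adjusted p = 0.00647) and passed. Without the block, leaving out 1 library gave values from -0.34 to -0.17, the latter without Input RD replicate 1, with adjusted p from 0.0951 to 0.499. That block raised the count over all genes from 595 to 3877. Abhd11os had a value of 2.89 in the n_ZFP_a_Rpl set, given without a test. Its IP mean over its Input mean there was 0.747 in ND, 0.664 in NZ, 5.56 in RD and 1.60 in RZ. In the hSyn set the same ratios were 1.33, 1.37, 1.02 and 1.35, and in the n_ZFP_n_Rpl set 1.43, 1.48, 1.44 and 2.17. The highest of these 12 ratios was that of RD in the n_ZFP_a_Rpl set. For RZ less RD, Abhd11 passed in 0 of 3 sets with edgeR's test, where 0%, 1.86% and 0.253% of all genes did (0 at an unadjusted p under 0.05 and 0 with DESeq2).

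Pull-downs from neuron-labelled and astrocyte-labelled sets were compared in ND. Abhd11os was higher in the n_ZFP_n_Rpl than in the n_ZFP_a_Rpl IP by 0.71 ± 0.20 (adjusted p = 0.00218), where 30.3% of genes were higher. It was higher in the hSyn than in the MG IP by 0.98 ± 0.19 (adjusted p = 1.36e-05), where 34.8% were. Abhd11 was at -0.16 ± 0.08 (adjusted p = 0.0762) and 0.10 ± 0.07 (adjusted p = 0.223) in the same order. Set and cell type differ together in these comparisons and cannot be told apart. The mean difference of Abhd11 in the neuron-labelled IPs less that in the astrocyte-labelled IPs was -0.0451 ± 0.0801 for RD less ND and -0.0929 ± 0.0809 for RZ less RD (adjusted p = 0.752 and 0.538), beside 20.7% and 5.51% of genes called.

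Beyond the pair, the nearest tested genes, Stx1a and Wbscr22, passed in neither fraction of the n_ZFP_n_Rpl set, where Abhd11os differed most. The errors of Stx1a were wide there. In the IP it was at -0.35 ± 0.25 between RD and ND (adjusted p = 0.268) and 0.27 ± 0.25 between RZ and RD (adjusted p = 0.501). In the Input it was at 0.15 ± 0.23 between RD and ND (adjusted p = 0.602). Wbscr22 was at -0.11 ± 0.07 between RD and ND in the IP (adjusted p = 0.163). The nearest genes before Abhd11, the claudin gene Cldn3 and Wbscr25, had mean levels of 0.009 and 0.092 CPM and were too low to test. Stx1a, the syntaxin of the presynaptic membrane, rose between RD and ND in the hSyn IP (0.30 ± 0.08, adjusted p = 0.00565) and Input (0.44 ± 0.09, adjusted p = 0.000909) and passed in no other combination. Between RZ and RD it rose in the n_ZFP_a_Rpl IP (0.22 ± 0.06, adjusted p = 0.0101). Wbscr22, an RNA methyltransferase gene now named Bud23, fell in RD in the hSyn IP alone (-0.34 ± 0.09, adjusted p = 0.00413). Of 28 other genes in the interval around the pair, 23 were tested in the n_ZFP_n_Rpl IP, and 4 rose and 3 fell between RD and ND, beside 25.2% and 26.2% of all genes. The 3 with the largest change at a mean of at least 5 CPM were Vps37d, of the ESCRT-I sorting complex, which rose by 0.88 ± 0.09, the clathrin adaptor gene Hip1, which fell by 0.31 ± 0.07, and the replication factor gene Rfc2, which rose by 0.25 ± 0.05.

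The 2-oxoglutarate dehydrogenase complex, whose lipoyl groups Abhd11 is known to keep intact, belongs to the 2-oxoacid dehydrogenases. Of 18 genes of the 2-oxoacid dehydrogenases and lipoate metabolism, 8 rose and 1 fell between RD and ND in the n_ZFP_n_Rpl IP (25.2% and 26.2% of all genes) and 5 and 2 in the n_ZFP_a_Rpl IP (20.6% and 24.7%). There were 7 and 1 in the hSyn IP (25.4% and 25.5% of all genes) and 4 and 1 in the MG IP (17.4% and 16.2%). In the Inputs 11 rose and 1 fell in n_ZFP_n_Rpl (26.1% and 23.7% of all genes), 8 and 3 in n_ZFP_a_Rpl (24.4% and 24.7%) and 7 and 1 in hSyn (22.5% and 21.6%). In the MG and n_ZFP_a_Rpl IPs the number that rose was close to the share of all genes. Their medians were 0.0533 to 0.20, beside -0.00198 to 0.0353 over all genes. Ogdh, the first subunit of the 2-oxoglutarate dehydrogenase complex, was among those that fell, by 0.36 ± 0.04 in the n_ZFP_n_Rpl IP (adjusted p = 3.79e-06). It fell by 0.29 ± 0.04 in the n_ZFP_a_Rpl IP and rose there by 0.20 ± 0.04 between RZ and RD (adjusted p = 0.00199). Bckdhb, a subunit of the branched-chain dehydrogenase, rose by 0.41 ± 0.10 between RD and ND in the n_ZFP_n_Rpl IP and Dhtkd1, of the 2-oxoadipate dehydrogenase, rose by 0.37 ± 0.14. Between RZ and RD in the n_ZFP_a_Rpl IP, Bckdhb fell by 0.27 ± 0.06 and Dhtkd1 fell by 0.59 ± 0.09. In all, 1 of the 18 rose and 5 fell in that comparison, beside 19.1% and 14.7% of all genes.

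The counts of other alpha/beta-hydrolase genes called in either direction were near the shares of all genes. Of 17 tested, 5 rose and 5 fell between RD and ND in the n_ZFP_n_Rpl IP (25.2% and 26.2% of all genes), 3 and 5 in the n_ZFP_a_Rpl IP (20.6% and 24.7%), 5 and 5 in the hSyn IP (25.4% and 25.5%) and 2 and 2 in the MG IP (17.4% and 16.2%). Abhd14b rose by 1.68 ± 0.16 in the n_ZFP_n_Rpl IP and fell there by 1.02 ± 0.15 between RZ and RD. The lipase gene Abhd2 fell by 0.92 ± 0.05 and rose by 0.28 ± 0.05 in the same comparisons. Abhd16a, a phosphatidylserine lipase gene, rose by 0.53 ± 0.08 and fell by 0.29 ± 0.08. Each of the 3 differed more between RD and ND than Abhd11, at -0.26, but they were picked by the size of that difference.

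The table holds 128 other genes whose symbol is that of another gene with the ending os, the mark of an opposite-strand gene. In the n_ZFP_n_Rpl IP 39 of these pairs had both genes tested. Between RD and ND 19 of the antisense genes were called, 7 lower and 12 higher, and in 10 of those the partner was called too, 6 in the same and 4 in the opposite direction. Partners were called in 20 of the 39 pairs, against 51.4% of all genes. Tomm6os was at 1.92 beside 0.15 ± 0.06 (adjusted p = 0.0515) for Tomm6, a subunit of the mitochondrial import pore. Atad3aos was at 1.80 beside 0.13 for Atad3a, and Fam120aos at 0.98 beside a fall of Fam120a (-0.29 ± 0.05, adjusted p = 0.000133). Zeb2os was at -0.95 beside 0.0729 for the transcription factor gene Zeb2, and Dlx6os1 at -0.80 beside -0.26 ± 0.14 (adjusted p = 0.133) for Dlx6. These 5 pairs were picked by the size of the antisense gene's difference, which is therefore no comparison of the pair.

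Over the 28 group means, the log2 CPM of Abhd11os and Abhd11 had a Pearson correlation of 0.43 and a Spearman correlation of 0.42. The groups share sets and conditions, so the values are a description. Among 11039 genes with a mean of at least 5 CPM, Abhd11 ranked 1486th in likeness to Abhd11os. The 5 genes most like Abhd11os were Car12, a carbonic anhydrase (0.92), Inhba, a subunit of activin (0.92), Tbc1d4, a Rab GTPase-activating protein (0.92), Spry2, an inhibitor of receptor tyrosine kinase signalling (0.92), and Gemin8, of the SMN complex (0.92). In the n_ZFP_n_Rpl IP Car12 was at -2.64 between RD and ND and 1.00 between RZ and RD, and Inhba at -3.17 and 1.09. Spry2 was at -1.16 and 0.35 there, Gemin8 at -0.88 and 0.28 and Tbc1d4 at -0.72 and 0.32, against -5.45 and 4.19 for Abhd11os. In the MG IP Car12 was at -2.43 and 0.00105. The 5 genes most like Abhd11 were Slc25a33, a mitochondrial nucleotide carrier (0.94), the linker histone gene Hist1h1c (0.93), the neuronal tubulin gene Tubb3 (0.93), Slc7a14, of the amino acid transporters (0.92), and the coatomer gene Copg1 (0.92). Copg1 was at -0.47 between RD and ND in the n_ZFP_n_Rpl IP and at 0.19 between RZ and RD. By Spearman correlation 3 of the 5 genes stayed among the top 5 for Abhd11os and 4 for Abhd11.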

How the data were processed

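The values are the authors' deposited counts, whole numbers of reads per gene, raw and not normalized. Per the submitters' processing notes, reads were aligned with STAR to mm10 and counted with HTSeq; neither versions nor the strand setting were stated in those notes. Per the labels' protocols, libraries were made with a TruSeq kit. Of 24060 gene rows, 4 whose symbol occurred more than once were dropped, and 22600 symbols matched RefSeq. No 2 libraries held the same values.

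Counts were tested with edgeR 4.0.16 (limma 3.58.1, R 4.3.3): TMM scaling, filterByExpr with a minimum count of 10 and a minimum total of 15, quasi-likelihood fits, and Benjamini-Hochberg adjustment over all genes tested, called at 0.05. Each set and fraction was 1 fit of its 4 conditions. IP and Input of a set made 1 fit, as did all IPs. Errors of log2 differences are standard errors. Alternatives were DESeq2 1.42.0, RLE factors, no filter, replicate blocks, fits of the compared groups alone, and leaving out libraries one by one. The scripts were tested on simulated data.

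The genes, lists and tests were chosen with earlier results of these data known. Named genes were the pair, the 5 most alike per gene, up to 3 called genes per list and the 5 antisense genes with the largest difference between RD and ND in the n_ZFP_n_Rpl IP, and the nearest 2 genes on either side. Genes with Gm, Rik or -ps symbols were passed over for the most alike. IP and Input libraries of the same number deviated together in 15 of 15 pairs of the n_ZFP_a_Rpl set (r from 0.454 to 0.688) and 16 of 16 of the n_ZFP_n_Rpl set (0.513 to 0.768), and in 11 of 14 of the hSyn set. The hSyn pairs that did not were ND numbers 2, 3 and 4 (r = 0.0146, -0.273 and -0.0558).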

Additional observations from a re-analysis of the deposited data

Results flagged for a closer look

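Of 48 sets of values, 1 per gene for each group of 4 or 5 libraries, 2 held a library farther from the others than Dixon's critical value allows at the 95% level, where chance gives about 1 in 20. Abhd11 was at 15.6 CPM in RZ replicate 3 of the n_ZFP_n_Rpl Input, against 17.3 to 17.4 CPM in the other libraries of the group. Without it the difference between RZ and ND there was 0.20 rather than 0.17. Abhd11os was at 20.2 CPM in NZ replicate 3 of the hSyn Input, where the other libraries of the group were at 16.99 to 17.2 CPM.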

How the results depend on the processing

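Among results of the 2 genes, 48 per gene were recomputed under DESeq2, RLE factors and no filter. With DESeq2 44 of the 48 for Abhd11 and 47 for Abhd11os kept direction and side of the threshold, and with RLE factors 45 and 47. Values below are log2 differences. The cause of each change was not tested.

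For Abhd11, RZ less RD in the MG IP passed with DESeq2 (0.32), and RD less ND there with only the groups compared (-0.17). RD less ND in the hSyn Input was lost with only the groups compared (-0.26) and with a replicate block (-0.10). RZ less RD in the n_ZFP_n_Rpl IP was lost without the filter (0.26) and with the block (0.26). NZ less ND in the MG IP was lost with the block (0.27). RZ less ND in the n_ZFP_n_Rpl Input was lost with DESeq2 (0.15), RLE factors (0.15), no filter (0.16), the block (0.17) and only the groups compared (0.15). The IP difference between the n_ZFP_n_Rpl and n_ZFP_a_Rpl sets in ND passed without the filter (-0.21). Values near 0 changed sign. These were the interaction in the MG IP (0.0120 with DESeq2, 0.00918 with RLE factors, 0.0293 with the block) and in the hSyn IP (-0.20 with the block). So did NZ less ND in the hSyn Input (0.0876 with the block) and IP less Input of RZ less RD in the hSyn set (-0.00650, -0.00568 and -0.00393 with DESeq2, RLE factors and the block). For Abhd11os, NZ less ND in the MG IP was -0.00189 with DESeq2 and -0.00159 with RLE factors, and its interaction in the hSyn IP moved to 0.96 with the block.

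Replicate numbers of different conditions were not taken as pairs: 4 to 13 pairs per combination correlated above 0.1, of 18 to 24. In the n_ZFP_n_Rpl IP, though, all 4 pairs of ND and RD did (r from 0.145 to 0.290), and with the block Abhd11 there was at -0.26 and kept its call. IP and Input paired in the n_ZFP_a_Rpl and n_ZFP_n_Rpl sets. With that pairing as a replicate block, IP less Input of RD less ND for Abhd11 (-0.34) and IP less Input in ND for Abhd11os (0.58) passed in the n_ZFP_n_Rpl set, and no other call of the pair changed in those 2 sets.

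Leaving out 1 library gave these ranges for Abhd11. RD less ND ran from -0.32 to -0.19 in the hSyn Input, -0.31 to -0.23 in the n_ZFP_a_Rpl Input, -0.32 to -0.22 in the n_ZFP_n_Rpl IP and -0.00478 to 0.0758 in its Input. RZ less RD ran from 0.27 to 0.34 in the MG IP and 0.24 to 0.28 in the n_ZFP_n_Rpl IP. NZ less ND ran from 0.27 to 0.36 in the MG IP and -0.0126 to 0.14 in the n_ZFP_n_Rpl IP. RZ less ND ran from -0.34 to -0.19 in the hSyn IP, -0.0565 to 0.0418 in the n_ZFP_n_Rpl IP and 0.13 to 0.20 in its Input. The interaction ran from -0.0596 to 0.0422 in the MG IP, -0.0705 to 0.0658 in the hSyn IP, 0.16 to 0.23 in the n_ZFP_a_Rpl IP and -0.0399 to 0.0846 in its Input. IP less Input of RD less ND in the n_ZFP_n_Rpl set ran from -0.34 to -0.17. IP less Input in the hSyn set ran from -0.16 to 0.00922 for RD less ND and -0.0826 to 0.0757 for RZ less RD. The IP difference between the n_ZFP_n_Rpl and n_ZFP_a_Rpl sets in ND ran from -0.19 to -0.0959.

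For Abhd11os, NZ less ND ran from -0.25 to 0.13 in the MG IP, -0.25 to 0.00210 in the n_ZFP_n_Rpl IP and -0.36 to 0.0718 in its Input. RD less ND ran from -4.79 to -4.59 in the hSyn IP, -4.57 to -4.12 in its Input and -5.31 to -4.98 in the n_ZFP_a_Rpl Input. RZ less RD ran from 0.72 to 1.16 in the hSyn Input and 2.82 to 3.15 in the n_ZFP_a_Rpl Input, and the interaction from 0.64 to 1.09 and 2.52 to 2.85. IP less Input in ND of the n_ZFP_n_Rpl set ran from 0.37 to 0.76, and passed without Input replicate 3 (0.76) or IP replicate 1 (0.67). IP less Input of RD less ND ran from -0.55 to -0.0694 in the hSyn set, 2.69 to 3.02 in n_ZFP_a_Rpl and -0.30 to 0.19 in n_ZFP_n_Rpl. For RZ less RD the ranges were 0.11 to 0.55, -1.92 to -1.60 and 0.34 to 0.88.

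Counts of all genes called moved more. With DESeq2 those of RZ less RD went from 12 to 391 in the MG IP, 6 to 22 in the hSyn IP and 525 to 901 in the n_ZFP_n_Rpl Input. Those of NZ less ND went from 1081 to 2251 in the MG IP, 4 to 10 and 1 to 5 in the hSyn IP and Input, 316 to 875 and 151 to 336 in the n_ZFP_a_Rpl IP and Input, and 1113 to 1751 and 479 to 1101 in those of n_ZFP_n_Rpl. With only the groups compared, NZ less ND had 2, 146, 95, 241 and 37 in the hSyn IP and the IP and Input of both n_ZFP sets, and RZ less RD 1 in the MG IP, 10 in the hSyn IP and 1 in its Input. With the block, NZ less ND had 3 in the MG IP and 287 in the n_ZFP_n_Rpl Input, and RZ less RD 6 in the MG IP and 1 in the hSyn IP. The interaction went from 0 to 52 in the MG IP and to 7 and 1 in the hSyn IP and Input with DESeq2, and to 1 in the MG IP without the filter. IP less Input of RD less ND in hSyn, n_ZFP_a_Rpl and n_ZFP_n_Rpl went from 165, 303 and 595 to 651, 933 and 3877 with the block, and in the first 2 to 266 and 473 with DESeq2. It was 106 in the hSyn set with RLE factors, and 70 in hSyn and 373 in n_ZFP_n_Rpl without the filter. The same for RZ less RD went from 0, 302 and 41 to 2, 1285 and 470 with the block and 1, 636 and 96 with DESeq2. In the hSyn set that block joined ND numbers 2, 3 and 4, whose IP and Input did not deviate together, so its counts rest in part on pairs that may not match. The neuron less astrocyte difference of RZ less RD went from 883 to 579 without the filter.

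Depth limits Abhd11os in RD, where a library held as few as 2 counts, so its RD levels and the multiples of RD carry large counting error. Abhd11 had at least 412 counts in every library. Groups of 3 to 5 libraries limit the tests, and a missed threshold does not show that levels were alike.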
